A study of Mus musculus with 20 samples.

Results

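Shutoff of the light response and its calcium feedback were described through 10 genes, Gucy2e, Gucy2f, Guca1a, Guca1b, Rgs9, Rgs9bp, Gnb5, Grk1, Rcvrn and Pde6d. They were chosen by their symbols, with earlier results of these data known. All 10 were listed in each of the 4 tables, which held 19368 genes for the oxygen experiment and 19102 for the inhibitor experiment, and all 10 had a mean above the minimum of 0.1 FPKM. The values came from bulk RNA-Seq of whole mouse retinas, 5 libraries in each of 4 groups, all on a C57BL/6J background and of both sexes. The first pair of groups came from oxygen-induced retinopathy (OIR), in which pups breathe 75% oxygen from P7 to P12 and then room air, and the retina was taken at P17 from wildtype mice (WT OIR) and from mice without functional Atf6 (Atf6-/- OIR). Atf6 encodes a membrane-bound transcription factor of the endoplasmic reticulum stress response, and the knockout allele is a premature stop codon carried in the germline, not limited to one cell type. The second pair came from wildtype mice without oxygen treatment that received 1 µL of saline (PBS) or of 10 µM Ceapin-A7, an inhibitor of Atf6 activation, in both eyes by intravitreal injection at P30, with collection 24 h later. The labels give both injected groups saline with 0.05 to 0.1% of a carrier they name dimethyl sulfide, whereas the study's methods name DMSO at 0.01% with Ceapin-A7 and 0.05% in the control. Nothing in the sources used here says whether each library came from a different mouse, so the p-values measure the spread between these samples.

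In rods and cones, light-activated opsin switches on transducin and then the phosphodiesterase PDE6, cGMP falls, the cGMP-gated channels close and the calcium level in the outer segment drops. The cell recovers when each step is switched off. GRK1, the kinase encoded by Grk1, phosphorylates active opsin so that arrestin can bind, and recoverin (Rcvrn) holds GRK1 back while calcium is high. Transducin is switched off by the GTPase-accelerating complex of RGS9, the G protein beta subunit Gnb5 and the membrane anchor R9AP, encoded by Rgs9bp. Falling calcium releases the guanylate cyclase activating proteins encoded by Guca1a and Guca1b from their calcium-bound state, and they stimulate the retinal guanylate cyclases encoded by Gucy2e and Gucy2f, which restore cGMP. Pde6d encodes a carrier of prenylated proteins, PDE6 and GRK1 among them, to the outer segment. All of these act in photoreceptors, although Gnb5 and Pde6d are also used by other cells, Gnb5 as the partner of the related RGS proteins of bipolar cells and other neurons.

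Promoters were printed for the 4 genes whose upstream sequence held TAATCC, the core bound by CRX and OTX2, the homeodomain factors of photoreceptors. The RefSeq promoter table (GRCm38.p6, whereas the values were made on GRCm39) matched 7 of the 10 genes, and Guca1b, Rgs9bp and Rcvrn were not among them. In the 250 bases before the annotated start, TAATCC on either strand (as GGATTA on the other strand) was present in 4 of the 7, against 6.25% of all 32851 promoters in the table. TGCTGA or its reverse TCAGCA, a half-site of the rod factor NRL, was present in 1 of the 7, Rgs9, against 16.1% of all promoters, and the homeodomain core TAATTA was present in 0 of the 7, against 4.84%. TAATCC and TAATTA differ in their last letters, so they cannot match at one place, and a match is a description of the sequence only. The printed stretches run 5′ to 3′ toward the start, with TAATCC or its reverse in capitals.
Gucy2e, chr11:69237023-69237272, minus strand: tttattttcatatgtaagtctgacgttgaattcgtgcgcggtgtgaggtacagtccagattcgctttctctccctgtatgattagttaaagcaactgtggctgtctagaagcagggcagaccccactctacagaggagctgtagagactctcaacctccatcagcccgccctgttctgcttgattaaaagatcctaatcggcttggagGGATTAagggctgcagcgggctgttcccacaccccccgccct
Gucy2f, chrX:142196937-142197186, minus strand: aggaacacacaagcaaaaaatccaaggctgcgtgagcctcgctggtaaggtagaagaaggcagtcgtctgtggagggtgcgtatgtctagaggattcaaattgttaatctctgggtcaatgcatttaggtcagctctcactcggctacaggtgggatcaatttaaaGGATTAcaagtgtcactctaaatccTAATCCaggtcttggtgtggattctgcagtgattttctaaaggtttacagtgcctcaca
Guca1a, chr17:47400607-47400856, minus strand: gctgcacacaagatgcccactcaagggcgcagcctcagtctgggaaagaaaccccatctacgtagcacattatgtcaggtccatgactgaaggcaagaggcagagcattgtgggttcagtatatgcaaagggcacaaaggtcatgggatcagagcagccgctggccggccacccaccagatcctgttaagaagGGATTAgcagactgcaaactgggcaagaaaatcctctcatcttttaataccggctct
Gnb5, chr9:75306038-75306287, plus strand: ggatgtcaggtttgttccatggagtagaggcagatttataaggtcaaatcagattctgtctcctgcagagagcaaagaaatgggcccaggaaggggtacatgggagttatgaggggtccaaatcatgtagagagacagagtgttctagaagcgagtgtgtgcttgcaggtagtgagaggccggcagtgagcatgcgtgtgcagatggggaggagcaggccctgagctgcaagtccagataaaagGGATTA
The match began 42 bases before the start in Gucy2e, 57 bases in Guca1a and 6 bases in Gnb5. Gucy2f held a pair of matches, one on each strand, which began 84 and 59 bases before its start. Gnb5 has several annotated starts, of which the table gives one, and the deposited values are per gene, so they do not separate its photoreceptor form from the form of other neurons.

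The libraries differed little in scale, with sums of 410599 to 456250 FPKM and scaling factors of 0.946 to 1.04, and the number of reads behind each value is not in the tables. Retinal identity was plain, since the 6 rod markers summed to 11960 to 17926 FPKM in each library. Tissue next to the retina was present in unequal amounts. The 5 lens markers summed to 1.03 to 342 FPKM in WT OIR, 0.39 to 0.9 in Atf6-/- OIR (up to 4 of the 5 at 0 in a library), 5.41 to 4419 in PBS and 68.4 to 7953 in Ceapin-A7. The 5 pigment epithelium markers summed to 9.18 to 76.1, 37.4 to 251, 97 to 209.6 and 35 to 148 FPKM in the same order. PBS libraries 4 and 5 had the lowest rod sums of all, 12730 and 11960 FPKM, with 16106 to 17926 in the other PBS libraries. The Atf6 transcript itself was 14.9 ± 0.618 FPKM in WT OIR and 15.2 ± 1.51 in Atf6-/- OIR (SD, n = 5), so the level of this transcript did not separate the genotypes and gave no check of the labels.

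Recoverin was the most abundant of the 10 transcripts and the cyclase gene Gucy2f the least abundant in all 4 groups. In WT OIR, Rcvrn was at 1409 ± 88.2 FPKM and Gucy2f at 20.8 ± 2.67 FPKM (SD, n = 5), values that are per transcript length and so can be set side by side. Guca1b was the next after Rcvrn at 519 ± 44 FPKM. Guca1a (307 ± 32.7), Gnb5 (287 ± 24.6) and Rgs9 (227 ± 20) followed, and the ranges of neighbours among these 3 overlapped. Grk1 stood apart below them at 191 ± 11.3 FPKM, above all libraries of Pde6d (96.3 ± 8.53), Gucy2e (85 ± 11) and Rgs9bp (75.8 ± 7.26), whose neighbouring ranges overlapped. Thus the cyclase activators were listed far above the cyclases, and RGS9 and its beta subunit above the anchor R9AP. In PBS, the ranges of Rcvrn (1056 ± 175), Guca1b (1012 ± 104) and Guca1a (807 ± 137) overlapped from each to the next, and Grk1 (340 ± 44.9) came next with Gnb5 (289 ± 17.8). The spread between libraries was smallest in Ceapin-A7 for Grk1, with a coefficient of variation of 1.23%, and largest in PBS for Guca1a, at 16.9%.

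**Figure D1:**
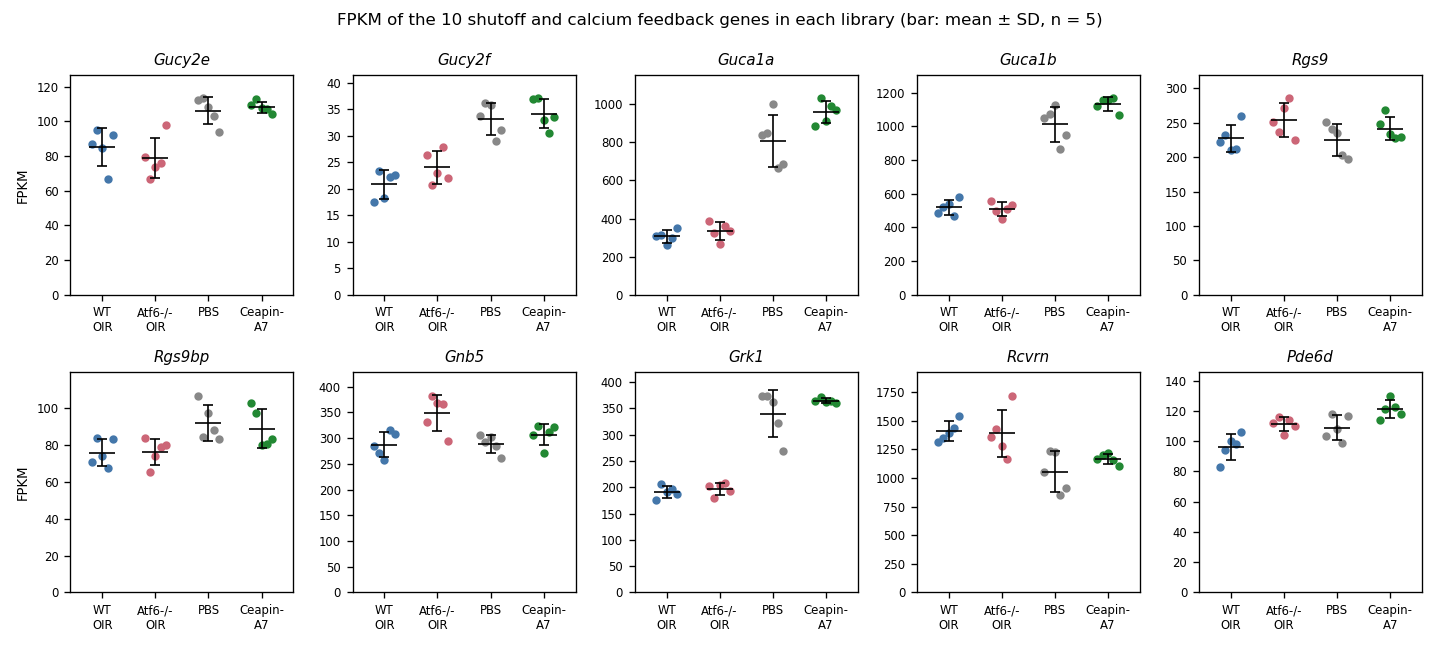
FPKM (vertical axes, from 0) of the 10 genes in the 20 libraries, by group on the horizontal axes; points are libraries and bars the mean ± SD of 5. Guca1a, Guca1b, Grk1 and Gucy2f are higher in every injected P30 library than in every OIR library, while within each pair of groups the points overlap for all 10 genes.

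The first comparison asked whether loss of Atf6 changed these transcripts in the P17 OIR retina. No gene of the 10 passed an adjusted p of 0.05 (limma, Benjamini-Hochberg over 15704 genes), in a fit that called 5 genes, or 0.0318%. The study's own threshold was set on the p before adjustment, at 0.05, and 2 of the 10 passed it, Gnb5 and Pde6d, both higher in Atf6-/- OIR. This threshold took 12.7% of all genes tested, 6.92% of them in the direction of higher, so about 1 of any 10 genes passed it. Of the 10, 7 were higher and 3 lower in Atf6-/- OIR, with a median log2 fold change of 0.10 against 0.00 over all genes tested. The median was 0.05 after quantile normalization, 0.06 with weights for each library and 0.07 without Atf6-/- OIR replicate 1 or without WT OIR replicate 3.

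Gnb5 was at 284, 272, 257, 316 and 307 FPKM in the WT OIR libraries, in the order of their numbers, and at 331, 382, 368, 366 and 295 FPKM in Atf6-/- OIR. Replicate 5 of Atf6-/- OIR lay within the WT range as deposited, and after rescaling the groups did not overlap, as for 1.8% of all genes tested. The log2 fold change of Gnb5 was 0.29 ± 0.08 (SE), or 1.23-fold, with an adjusted p of 0.357 in limma. With weights estimated for each library, limma called Gnb5 at an adjusted p of 0.0249 (log2 fold change 0.34), together with 2772 genes in all; over the other alternatives the adjusted p of Gnb5 lay between 0.102 and 0.693.

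Pde6d was at 83, 94.3, 100.2, 97.9 and 106 FPKM in WT OIR and at 112, 116, 104, 114 and 110.1 FPKM in Atf6-/- OIR. Only replicate 3 of Atf6-/- OIR lay below the highest WT library. The log2 fold change was 0.23 ± 0.07 (SE), with an adjusted p of 0.357 in limma. Across the tested genes the log2 fold change in OIR ran with GC content (Spearman correlation -0.479 across genes, which are not replicates), and after removal of that trend the values were 0.32 for Gnb5 and 0.26 for Pde6d. The same step lowered Gucy2f from 0.22 to 0.13 and raised Guca1a from 0.14 to 0.23, and neither passed the unadjusted threshold.

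Gucy2f and Rgs9 came next before the GC step, each just short of the unadjusted threshold, whereas after it Guca1a came next. Gucy2f ranged from 17.6 to 23.3 FPKM in WT OIR and from 20.6 to 27.9 in Atf6-/- OIR (log2 fold change 0.22 ± 0.11, SE, adjusted p = 0.396, limma). Rgs9 ranged from 211 to 259.6 FPKM in WT OIR and from 225 to 285 in Atf6-/- OIR (0.18 ± 0.08, SE, adjusted p = 0.398, limma). Without WT OIR replicate 5, or without Atf6-/- OIR replicate 2, both passed the unadjusted threshold and the count of the 10 became 4. It was also 4 with WT OIR replicates 2 and 5 left out together, the wildtype libraries with the largest lens sums, a choice made after seeing the data. The share of all genes that passed in these refits is not given. WT OIR replicate 5 had the highest mean deviation of the 10 from their group means in WT OIR (0.149, log2). Atf6-/- OIR replicate 2 had the lowest in Atf6-/- OIR (-0.107). Leaving either out therefore raises the fold changes of the 10 on average. The cyclase Gucy2e, by contrast with Gucy2f, was lower in Atf6-/- OIR in 4 of 5 libraries than the WT median, with a log2 fold change of -0.09 ± 0.13. The activator gene Guca1a had a log2 fold change of 0.14 ± 0.11 (SE), and its value moved with the processing. It was 0.05 with weights for each library, 0.08 without WT OIR replicate 3 or without Atf6-/- OIR replicate 1, and 0.22 without Atf6-/- OIR replicate 3, where it passed the unadjusted threshold. The other activator gene, Guca1b (-0.01 ± 0.09), the anchor gene Rgs9bp (0.02 ± 0.09), Grk1 (0.06 ± 0.06) and Rcvrn (-0.01 ± 0.11) had log2 fold changes near or below their SE. In whole retinas, a different number of photoreceptors and a different amount of each RNA per photoreceptor cannot be told apart. Lens and pigment epithelium markers moved with genotype, with medians of -4.26 and 1.76 on the log2 scale, and their part in these values was not tested.

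The second comparison asked the same of 24 h of Ceapin-A7, against injected saline, in the P30 retina without oxygen treatment. No gene of the 10, and 0 of all 15408 genes tested (0%), passed an adjusted p of 0.05 in limma, while 10.4% of all genes, 5.04% in the direction of higher, met the unadjusted threshold. Of the 10, 2 passed the unadjusted threshold, Guca1a and Pde6d, both higher with Ceapin-A7, and 9 were higher and 1 lower, with a median log2 fold change of 0.11 against 0.00 over all genes tested. The median was 0.04 after quantile normalization, 0.07 with weights for each library and 0.07 after rescaling to TPM. For 0 of the 10 did the groups separate, which they did for 1.47% of all genes.

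Guca1a, which encodes the activator GCAP1, was at 839, 848, 999, 665 and 684 FPKM in PBS replicates 1 to 5 and at 887, 1030.5, 913, 991 and 969 FPKM in Ceapin-A7. PBS replicates 4 and 5 were the lowest, and PBS replicate 3 lay among the Ceapin-A7 libraries. The log2 fold change was 0.26 ± 0.11 (SE), with an adjusted p of 0.474 in limma. Pde6d was at 103, 118, 108, 98.8 and 117 FPKM in PBS and at 114, 122, 129.8, 123 and 118 FPKM in Ceapin-A7, a log2 fold change of 0.16 ± 0.06 (SE, adjusted p = 0.472, limma). Each Ceapin-A7 library was above the PBS median for both genes, yet the ranges overlapped.

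Grk1 showed the unequal spread of these groups most plainly. It was at 373, 374, 362, 322 and 269 FPKM in PBS and between 361 and 372 FPKM in all 5 Ceapin-A7 libraries. The log2 fold changes of Guca1b (0.17 ± 0.08, SE, adjusted p = 0.492, limma), Rcvrn (0.16 ± 0.11), Grk1 (0.11 ± 0.09), Rgs9 (0.10 ± 0.08) and Gnb5 (0.08 ± 0.07) were positive, those of Gucy2f (0.05 ± 0.08) and Gucy2e (0.03 ± 0.06) were smaller than their SE, and that of Rgs9bp was -0.05 ± 0.09.

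The shift of the 10 with Ceapin-A7 was also refitted without PBS replicates 4 and 5. With both left out, a choice made after seeing the data, the median of the 10 was -0.02 in place of 0.11, Guca1a stood at 0.08 and Pde6d at 0.13, and only Pde6d still passed the unadjusted threshold (adjusted p = 0.99, limma). These libraries had the lowest mean deviations of the 10 in PBS (-0.173 and -0.169, log2). Leaving them out therefore lowers the fold changes on average, so the direction of this change carries no weight. Leaving out PBS replicate 5 alone gave a median of 0.05. The count at the unadjusted threshold was 1 without PBS replicate 4, PBS replicate 5 or Ceapin-A7 replicate 2, 3, 4 or 5, each taken alone. The same PBS libraries had the low rod sums given above, and their cone sums (872 and 801 FPKM, with 1009 to 1136 in the other PBS libraries) and Muller glia sums (451 and 598 FPKM, with 873 to 1313) were also the lowest of PBS. Other cell types did not all follow. PBS replicate 5 had the highest amacrine (352 FPKM) and ganglion (252 FPKM) sums of PBS. PBS replicate 4 had the highest endothelial sum (72.2 FPKM) and the lowest bipolar sum (272 FPKM). Lens and pigment epithelium markers had medians of 1.28 and -0.85 on the log2 scale between Ceapin-A7 and PBS, and their part in these values was not tested.

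**Figure D2:**
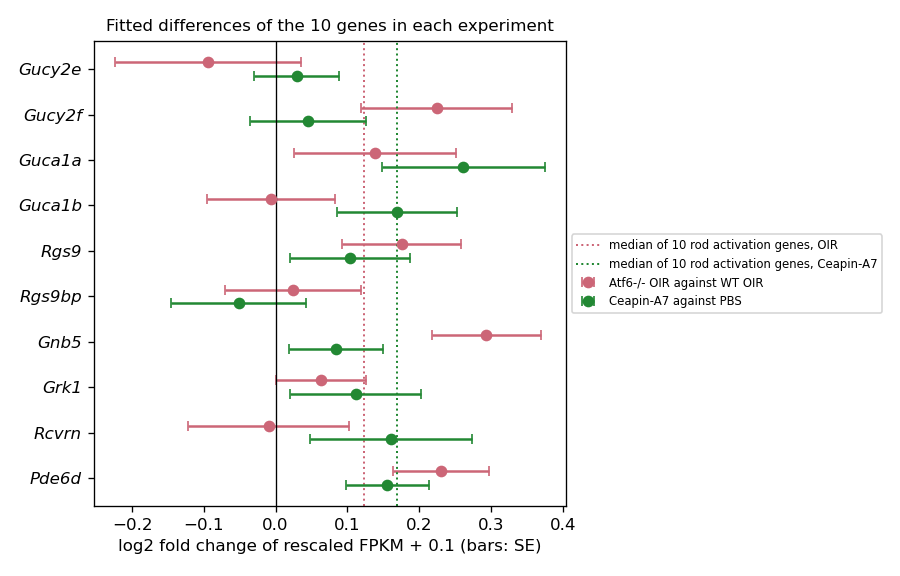
Log2 fold change (horizontal axis, with SE bars) of each of the 10 genes in Atf6-/- OIR against WT OIR (red) and in Ceapin-A7 against PBS (green), n = 5 per group; dotted lines are the medians of the 10 rod activation genes, 0.12 and 0.17. Gnb5 and Pde6d lie highest in the first experiment and Guca1a highest in the second, and none passed an adjusted p of 0.05.

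Whether genotype in OIR and the inhibitor at P30 moved these genes unequally was tested as the difference of the log2 fold changes in 1 fit of all 20 libraries. At the unadjusted threshold, 0 of the 10 genes and 9.2% of all 15628 genes differed, and 0 of the 10 passed after adjustment (limma). Gnb5 came closest, with a difference of 0.21 ± 0.10 (SE, adjusted p = 0.544, limma), just short of the unadjusted threshold. The other differences lay between -0.17 for Guca1b and 0.18 for Gucy2f. WT OIR replicates 2 and 5 and PBS replicates 4 and 5 were also left out, a choice made after seeing the data. Then 3 of the 10 passed the unadjusted threshold, Gucy2f (0.40), Gnb5 (0.30) and Rgs9 (0.28), each more positive in OIR. The libraries left out had the highest mean deviations of the 10 from their group means in WT OIR (0.0604 and 0.149, log2). In PBS they had the lowest (-0.173 and -0.169). Leaving them out therefore moves the differences upward on average, so this direction carries no weight. The share of all genes that passed in this refit is not given.

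Ratios between partner genes within a library do not depend on how libraries are scaled, and none differed between the groups of an experiment in exact two-sided permutation tests (10 tests, smallest possible p = 0.00794). The ratio of Gucy2e to Gucy2f, the 2 cyclases, was 3.01 to 4.94 in WT OIR and 2.72 to 4.44 in Atf6-/- OIR (exact permutation p = 0.119, adjusted p = 0.377). In 4 of 5 Atf6-/- OIR libraries it was between 2.72 and 3.23, which only 1 WT OIR library matched. The transcripts of Gucy2e and Gucy2f differ in GC content, at 52.6% and 42%. The ratios were not corrected for the GC trend in OIR, and its part in them was not tested. The ratio of Rgs9 to Rgs9bp, enzyme to anchor, was 2.31 to 2.85 in PBS and 2.43 to 2.92 in Ceapin-A7 (exact permutation p = 0.0873, adjusted p = 0.377). The ratio of Guca1a to Guca1b had geometric means of 0.591 in WT OIR and 0.653 in Atf6-/- OIR (exact permutation p = 0.135, adjusted p = 0.377) and of 0.792 in PBS and 0.844 in Ceapin-A7 (p = 0.198, adjusted p = 0.397, exact permutation). Gnb5 to Rgs9 was the steadiest ratio, with geometric means from 1.26 to 1.37 in the 4 groups.

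**Figure D3:**
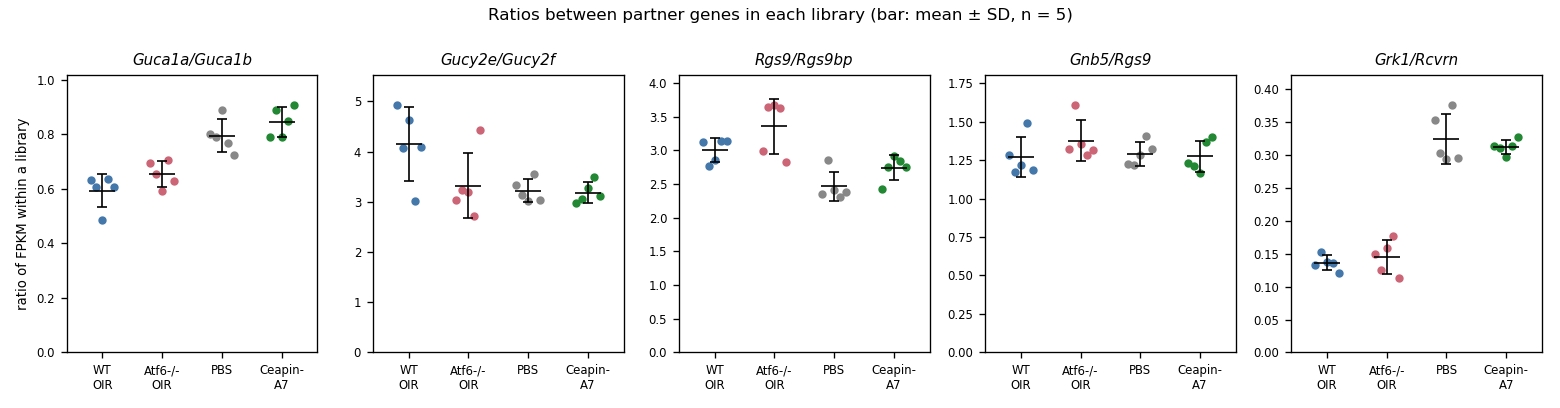
Ratio of FPKM of 5 pairs of partner genes within each library (vertical axes, from 0) by group (horizontal axes); points are libraries and bars the mean ± SD of 5. Grk1 to Rcvrn and Guca1a to Guca1b are higher in every P30 library than in every OIR library, whereas the ranges of Gnb5 to Rgs9 overlap in all groups.

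Levels in the P30 PBS retina were set beside those in the P17 WT OIR retina as a description only, since age, oxygen exposure, injection and the experiment differ at once and cannot be told apart. Of the 10 genes, 4 were higher in every PBS library than in every WT OIR library after rescaling, as were 21.7% of all 15655 genes, and 1 was lower in every PBS library, as were 19.7%. The median ratio of PBS to WT OIR was 1.25 over the 10 and 0.995 over all genes.

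The cyclase activators stood highest. Guca1a was at 308, 316, 261, 299 and 352 FPKM in WT OIR, below the lowest PBS library at 665 FPKM, and the ratio of rescaled means was 2.67, above 98.6% of all genes. Guca1b was at 486, 522, 538, 468 and 580.1 FPKM in WT OIR and at 1048, 1072, 1126, 868 and 947 FPKM in PBS, a ratio of 1.98. Grk1, the kinase that starts opsin shutoff, was at 176, 206, 192, 196 and 187 FPKM in WT OIR, below the lowest PBS library at 269 FPKM, a ratio of 1.8. The cyclase Gucy2f was at 17.6, 23.3, 18.3, 22.2 and 22.6 FPKM in WT OIR and at 33.6, 36.1, 35.8, 29 and 31 FPKM in PBS, a ratio of 1.62. These 4 genes were also higher in each Ceapin-A7 library than in each Atf6-/- OIR library.

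Recoverin went the other way. Rcvrn was at 1317, 1353, 1389, 1441 and 1543 FPKM in WT OIR and at 1056, 1233, 1228, 854 and 909.5 FPKM in PBS, a ratio of 0.762. PBS replicates 4 and 5 gave the lowest of these values. Between Atf6-/- OIR (1170 to 1717 FPKM) and Ceapin-A7 (1103 to 1219 FPKM) the ranges of Rcvrn overlapped. The ratio of Grk1 to Rcvrn, kinase to inhibitor, was 0.121 to 0.152 in WT OIR and 0.295 to 0.377 in PBS. The groups overlapped for the transducin-inactivating complex, at ratios of 1 for Rgs9, 1.02 for Gnb5 and 1.23 for Rgs9bp, and Gucy2e (1.26) and Pde6d (1.15) also had overlapping groups. As deposited, the overlap of Gucy2e and of Rgs9bp rested on PBS replicate 5 alone. It held 94.1 FPKM of Gucy2e and 83 FPKM of Rgs9bp, against highest WT OIR values of 94.8 and 83.9 FPKM. WT OIR libraries 2 and 5 and PBS libraries 4 and 5 were also left out, a choice made after seeing the data. The ratios of means were then 1.16 for Rgs9, 1.09 for Gnb5, 1.4 for Rgs9bp, 1.45 for Gucy2e and 1.21 for Pde6d. The ratio of Rcvrn was then 0.877 in place of 0.762.

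Among other genes of the pathway, the 10 of rod activation (with subunits of transducin, PDE6, the channel and the exchanger) had a median ratio of 0.932, with 0 higher and 1 lower (Pde6g, 0.677) in every PBS library. This ratio includes PBS libraries 4 and 5, whose rod activation sums were 16114 and 15291 FPKM. The other PBS libraries had 20833 to 23291 FPKM and WT OIR 18416 to 20937 FPKM. List ratios without PBS libraries 4 and 5 are not given. The 10 of cone activation had a median of 0.948. The arrestins went opposite ways, rod arrestin Sag at 0.601 and cone arrestin Arr3 at 1.71. Across the 6 lists, 5 genes were higher in every PBS library: Arr3, the exchanger gene Slc24a2 (1.48), Gpr158 (1.41), Rp2 (1.86), the GTPase-activating partner of Arl3 in the carrier pathway that includes Pde6d, and Rom1 (1.99), an outer segment disc protein. Another 6 were lower in every PBS library: Pde6g, Sag, the cone PDE6 subunit gene Pde6c (0.594), Rgs11 (0.524), an RGS gene of ON bipolar cells, the transcription factor gene Crx (0.811) and Rp1 (0.757).

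**Figure D4:**
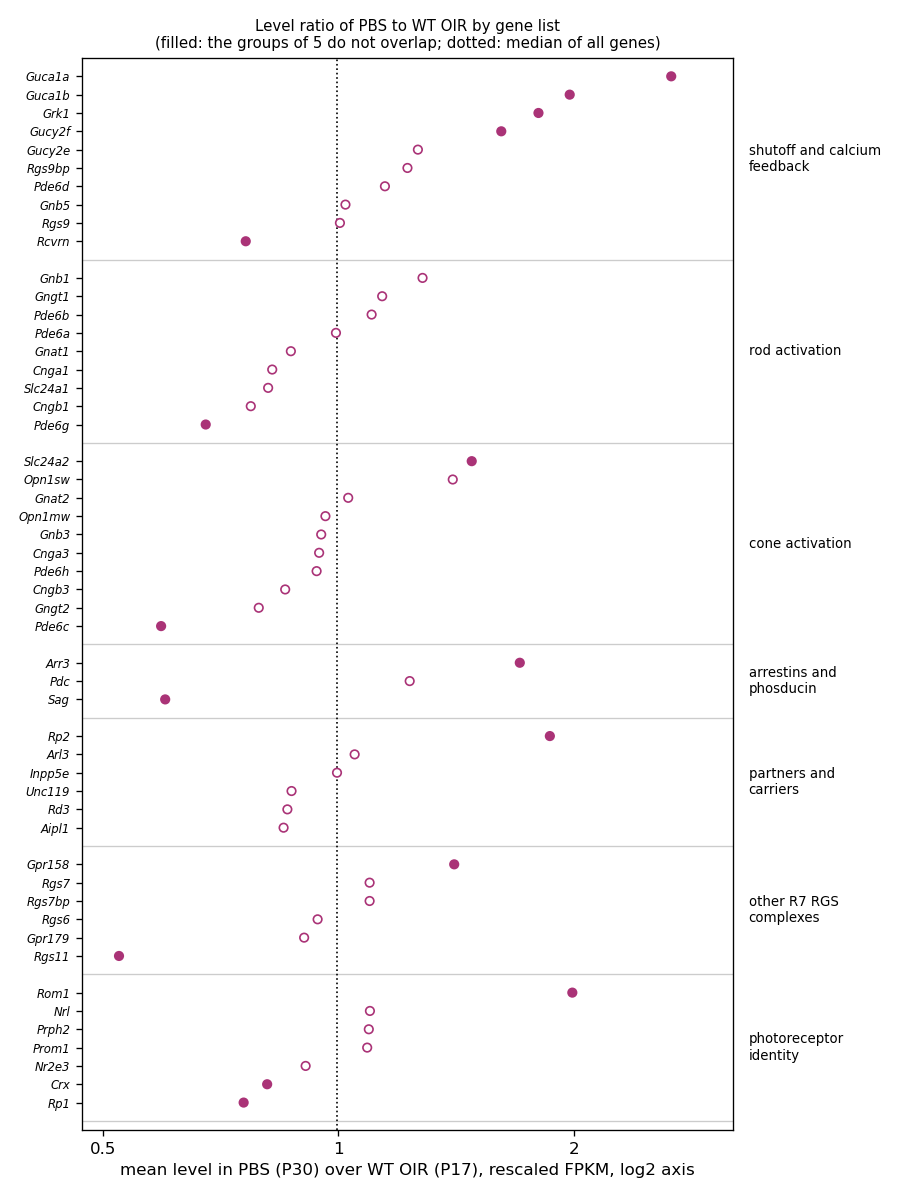
Ratio of the mean rescaled FPKM in PBS (P30) to that in WT OIR (P17) on a log2 axis for the 10 genes and for the 6 lists of related genes, n = 5 per group; filled points are genes whose groups do not overlap, and the dotted line is the median of all genes, 0.995. Guca1a, Guca1b, Grk1 and Gucy2f lie at 1.62 to 2.67 and Rcvrn at 0.762, and of the rod activation genes drawn only Pde6g has groups that do not overlap.

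The same lists gave the setting of the comparisons within each experiment. In OIR, the 10 rod activation genes were all higher in Atf6-/- OIR, 4 of them at the unadjusted threshold and 0 after adjustment (limma), with a median log2 fold change of 0.12. Gnb1 (1183 ± 57.9 against 1344 ± 82.2 FPKM, log2 fold change 0.20) and Pde6b (609 ± 55.1 against 696 ± 52.2 FPKM, 0.21), subunits of transducin and PDE6, had the smallest p. Of the 10 cone activation genes, 2 passed the unadjusted threshold, Opn1mw (0.27), the middle wavelength opsin, and Gnat2 (0.27), cone transducin. Phosducin (Pdc), which binds transducin beta-gamma, was at 1335 ± 170.2 FPKM in WT OIR and 1607 ± 114 in Atf6-/- OIR (0.29), and Arr3 differed by 0.11. Among the partners and carriers, 1 of 6 passed, Rp2 (3.56 ± 0.214 against 4.27 ± 0.591 FPKM, 0.27), with Rd3, the inhibitor of the cyclases, next at -0.16.

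The R7 RGS complexes of other retinal neurons, which also use Gnb5, had a median of 0.02 in OIR, with 2 of 6 genes higher and 1 lower at the unadjusted threshold. Rgs7 was at 20.8 ± 2.92 FPKM in WT OIR and 24.7 ± 2.49 in Atf6-/- OIR (0.27), and Rgs11, its relative in ON bipolar cells, at 70.4 ± 5.78 and 61 ± 3.34 FPKM (-0.19). Of the 7 photoreceptor identity genes, 2 passed, the transcription factor gene Crx (609 ± 27.6 against 685 ± 22.5 FPKM, 0.19) and Rp1 (0.19), a protein of the photoreceptor axoneme.

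With Ceapin-A7, the 10 rod activation genes were all higher, with a median of 0.17 and 0 at the unadjusted threshold, Pde6g (0.33) and Pde6b (0.22) having the smallest p. The cone activation list had a median of 0.22 with 5 of 10 at the unadjusted threshold, led by Gngt2 (141 ± 27 against 181 ± 11 FPKM, 0.38) and Pde6c (0.32). Of the arrestins and phosducin, 2 of 3 passed, Arr3 (128 ± 9.54 against 144 ± 6.3 FPKM, 0.17) and Sag (0.38). PBS replicates 4 and 5 had the lowest sums of PBS in the rod activation, cone activation and arrestin lists. For rod activation these were 16114 and 15291 FPKM, with 20833 to 23291 in the other PBS libraries and 21187 to 22943 in Ceapin-A7. No refit of these lists without PBS replicates 4 and 5 is given. Among the partners and carriers 0 of 6 passed, the nearest being Unc119 (0.21), a carrier of transducin alpha, and Arl3 (0.11), the GTPase that unloads Pde6d. The other R7 RGS complexes had a median of 0.01 with Gpr158 and Gpr179 at -0.09 each, and of the identity genes Nrl (0.21) and Prom1 (-0.09) had the smallest p. None passed an adjusted p of 0.05 in either experiment (limma). Once each library was centred on the rod activation genes, the median of the shutoff and feedback genes was -0.03 in OIR and -0.08 with Ceapin-A7, with 0 of the 10 at the unadjusted threshold in each.

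Within groups, the 10 genes tended to be high or low in the same libraries. Over the 20 libraries, deviations from the group mean correlated positively for 41 of the 45 pairs, with a median Pearson's r of 0.505 (0.345 over the OIR libraries and 0.709 over the injected ones). The points share library, scaling and RNA, and the values are a description without a test. Guca1a and Guca1b, neighbouring genes on chromosome 17, were the closest pair at r = 0.80. Gnb5 stood apart in OIR, with r = -0.641 against Gucy2e and -0.17 with the mean deviation of the 10. Over all 20 libraries its correlation with that mean was the lowest of the 10, 0.299. Over the injected libraries it was 0.721, and there Pde6d had the lowest, 0.297. The mean deviation of the 10 ranged from -0.173 in PBS library 4 and -0.169 in PBS library 5 to 0.149 in WT OIR library 5 on the log2 scale.

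Outside the 10, the genes whose deviations were most like that mean, out of 9402 compared, included Pde6a (r = 0.941), Tnfaip3 (0.901), Klhl3 (0.901) and Abca4 (0.892), over 20 libraries. Pde6a encodes the rod PDE6 alpha subunit, Abca4 the retinoid transporter of outer segment discs, and Tnfaip3 a regulator of NF-kB signalling.

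**Figure D5:**
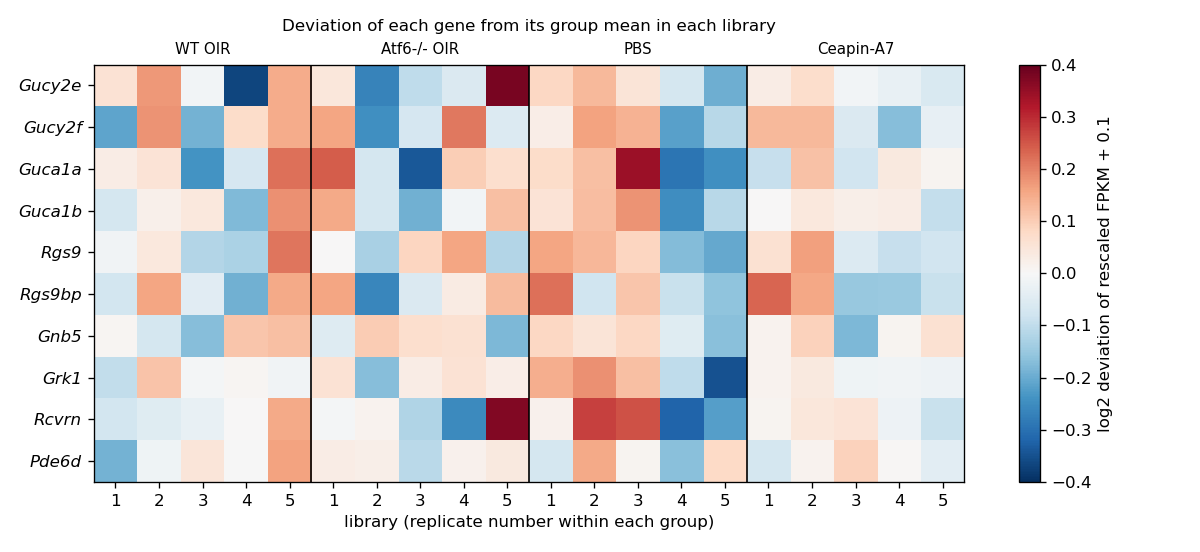
Log2 deviation of each of the 10 genes (rows) from its group mean in each of the 20 libraries (columns, by group and replicate number), in red for higher and blue for lower. PBS libraries 4 and 5 are low in 10 and 9 of the 10 genes, and the rows of Gnb5 and Pde6d follow the others least.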

How the data were processed

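Whole retinas were sequenced as stranded, paired-end 100 bp mRNA libraries (20 libraries, 5 per group). Per the labels and the study's methods, the authors aligned reads to GRCm39 with HISAT2 2.0.4 and deposited RSEM 1.2.18 FPKM to 2 decimals, in 1 table per group and normalised within each library; the strand setting of the counting is not given in the sources used here. The authors used DESeq2 1.4.5 on counts that were not used here, and since FPKM are not counts, each experiment was fitted with limma 3.58.1 (R 4.3.3, trend) on log2(FPKM divided by a median-of-ratios factor + 0.1), for genes with a mean above 0.1 FPKM, with Benjamini-Hochberg adjustment over all genes. A fold change on that scale understates changes of low genes. The call was an adjusted p under 0.05; counts at the study's unadjusted 0.05 are given beside it. Ratios within libraries were compared by exact permutation. The numbers of reads are not in the tables, so depth and counting error are unknown. The 10 genes and all gene lists were chosen with earlier results of these data known. Named were the 10 genes, Atf6, the 2 genes with the smallest p of each of 6 pathway lists, and the 5 genes most alike in deviation among those with a mean of at least 5 FPKM, of which 1 is not reported or drawn here; genes named for non-overlapping levels (Pde6g, Pde6c, Sag, Rgs11, Crx, Rp1, Arr3, Slc24a2, Gpr158, Rp2, Rom1) were chosen after their values were seen. Alternatives changed the pseudocount, filter, scaling, fit, GC trend, block and libraries. The scripts were tested on simulated data. Deviations of same-numbered libraries correlated from r = -0.258 to 0.31. Only PBS replicate 1 was most like its same-numbered library, Ceapin-A7 replicate 1 (r = 0.31), so the numbers were not used as pairs.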

Additional observations from a re-analysis of the deposited data

Results flagged for a closer look

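Of 40 sets of 5 values (10 genes in 4 groups), 1 held a library whose gap to its nearest neighbour was large against the range of the group: Grk1 in Ceapin-A7 replicate 2, at 372.16 FPKM with the next library at 364 FPKM. Chance alone marks about 1 in 20 such groups, and the whole Ceapin-A7 range of Grk1, from 361 to 372 FPKM, was within that of PBS.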

How the results depend on the processing

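Leaving out 1 library at a time gave 5 to 9 genes called in OIR, and of the 10 genes 2 to 4 in OIR and 1 to 3 with Ceapin-A7 at the unadjusted threshold and 0 to 1 with unequal effects. The log2 fold change then ranged in OIR over -0.0565 to 0.0426 for Guca1b, -0.0292 to 0.089 for Rgs9bp and -0.108 to 0.0545 for Rcvrn, and with Ceapin-A7 over -0.11 to 0.00598 for Rgs9bp, -0.00697 to 0.0888 for Gucy2f and -0.0202 to 0.0606 for Gucy2e. The difference of effects of Grk1 ranged over -0.0914 to 0.0406, and the log2 difference of a ratio over -0.00566 to 0.159 for Grk1/Rcvrn in OIR and, with Ceapin-A7, -0.0509 to 0.0208 for Gucy2e/Gucy2f, -0.0541 to 0.0117 for Gnb5/Rgs9 and -0.0825 to 0.00603 for Grk1/Rcvrn. Centring on the rod activation list gave 8 genes called in OIR, 0 of the 10 at the unadjusted threshold, a median of -0.0297, Rgs9bp -0.106 and Grk1 -0.0673. With Ceapin-A7 the same centring gave 0, a median of -0.0819, Gucy2e -0.16, Gucy2f -0.144, Guca1b -0.0198, Rgs9 -0.0858, Gnb5 -0.105, Grk1 -0.0781, Rcvrn -0.0288 and Pde6d -0.0336. Array weights gave 2772 genes called in OIR, 4 of the 10 at the unadjusted threshold, 1 of them called, and Rgs9bp -0.0455; with Ceapin-A7 they gave 1 of the 10 and Gucy2e -0.00213, and 2 unequal effects with 0.00519 for the difference of Grk1. The fit of all 20 libraries called 11 genes in OIR and 1 with Ceapin-A7. TPM scaling gave 1 of the 10 with Ceapin-A7, Gucy2e -0.00901 and 1 unequal effect, quantile normalization 1 and 1, and no filter 1. GC correction, alone or with the replicate block, gave Guca1b 0.0873 and Rcvrn 0.0547 in OIR, and alone 1 unequal effect; with the block Guca1a (0.228 in OIR) also passed the unadjusted threshold, beside Gnb5 and Pde6d. Chosen after seeing the data, leaving out WT OIR libraries 2 and 5 gave 4 of the 10, Gucy2e 0.0162, Guca1b 0.0643 and Rcvrn 0.0277; leaving out PBS libraries 4 and 5 gave 1 of the 10, a median of -0.0206, Gucy2e -0.0576, Gucy2f -0.063, Rgs9 -0.0215, Grk1 -0.0373 and Rcvrn -0.0196. Leaving out all 4 gave 3 unequal effects and differences of 0.0726 for Gucy2e, 0.149 for Guca1a, 0.0124 for Guca1b, 0.136 for Grk1 and 0.0462 for Rcvrn. The share of all genes at the unadjusted threshold is not given for these alternatives, and the cause was not tested.

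The replicate block alone kept 2 of the 10 at the unadjusted threshold in each experiment, with 5 genes called in OIR and 0 with Ceapin-A7, and changed no call. Depth is unknown, 5 libraries a group limit the precision, and a p that misses the threshold does not show equal levels.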
